A study of Homo sapiens with 32 samples.

Results

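EGF was added on top of angiotensin II (AngII), and the RNA of both sets of cells was compared after 24 h. The comparison rests on 7 of the 32 labelled libraries of the series, 3 of cells given EGF+AngII and 4 of cells given AngII alone, and its members are the 20327 protein-coding rows of the 24 h count table, of which 14294 passed the filter on low counts and were tested. The cells were HEK293 cells, an established line of human embryonic kidney origin, transiently transfected with the AT1 receptor (AT1R), the angiotensin II receptor that signals through Gq proteins. All 7 libraries carried AT1R and held AngII at 1 nM, so EGF at 10 µg/l was the only labelled difference. Cells were kept in serum-free medium, ribosomal RNA was removed from total RNA, and paired reads were sequenced. Because the transfection was transient, a library averages cells that took up different amounts of receptor plasmid, and a bulk library cannot tell fewer cells with a transcript from less of it per cell. AngII replicates 1 and 2 and EGF+AngII replicate 1 came from the first run of library numbers in the labels (series 1), AngII replicates 3 and 4 and EGF+AngII replicates 3 and 4 from series 2. EGF+AngII replicate 2 was not analysed here. The labels do not say that replicates were separate cultures, so p-values measure the spread between these samples, which may be technical.

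The 7 libraries held 3216794 to 8028878 protein-coding counts, the fewest in EGF+AngII replicate 3. U1 small nuclear RNA took 10.3% to 57.2% of all counts and was most abundant in AngII replicate 3 (57.2%) and EGF+AngII replicate 4 (55.6%), 1 library of each group. The share of protein-coding counts was 43.8% ± 17.5 (SD, n = 4) with AngII and 44.3% ± 18.3 (SD, n = 3) with EGF+AngII (exact permutation test, two-sided, p = 0.97, with 0.057 the smallest p that 3 against 4 libraries allow). Levels are given in FPM, the counts of a gene per 1000000 protein-coding counts tested, after TMM scaling. They are not divided by gene length and are compared only within a gene. Transcripts typical of HEK293 cells were present, among them VIM at 382 to 514 FPM and CDH2 at 47.3 to 73.7 FPM, while PAX2 was at 0 to 1.602 FPM. Of the markers of other cells, UMOD, AQP2, CD3E, TTR and SERPINA1 were at 0 in all 7 libraries. The summed kidney tubule markers, most of it LRP2, ranged from 26.6 to 41.02 FPM with AngII and from 25.9 to 37.0 FPM with EGF+AngII, those of endothelium and fibroblasts, nearly all collagen genes, from 53.0 to 66.5 FPM and 41.3 to 56.1 FPM, and those of hepatocytes from 0 to 0.801 FPM and 0 to 0.138 FPM, none of them called, and their part in the results was not tested. The transfected receptor, AGTR1, was at 1208, 1197, 854 and 966 FPM in AngII replicates 1 to 4 and at 1444, 1093 and 1258 FPM in EGF+AngII replicates 1, 3 and 4. Its groups overlapped and it was not called (log2 fold change 0.34, SE 0.11, adjusted p = 0.34, edgeR), and the part of receptor dose in the results was not tested.

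EGF binds the EGF receptor, a receptor tyrosine kinase whose signal runs through Ras, Raf, MEK and ERK to transcription factors such as ELK1 and SRF. ERK first raises immediate early genes, whose products are largely transcription factors, and then genes for inhibitors that feed back on the pathway. AT1R reaches the same kinases through Gq, protein kinase C and, in many cells, the EGF receptor itself. ATF4 is a transcription factor of the amino acid response. It binds CCAAT/enhancer-ATF sites and raises genes for amino acid synthesis, amino acid uptake and tRNA charging.

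The promoters shown here belong to called genes of the groups described further on. They were chosen because a window of 250 bases before to 50 bases after a RefSeq start (GRCh38.p14) holds an element searched for. The elements were that bound by ATF4 dimers (TGATGNAA), the CArG box of SRF, and the sites of the EGR zinc fingers (GCGTGGGCG or GCGGGGGCG). Where a gene had several windows, the first to hold the element before its start was printed, and distances are from that start. Both strands were searched, and capitals mark the matches. They are printed 5′ to 3′ on the strand of the gene. The stretches are those of ASNS (chr7:97872409-97872506, minus strand), CHAC1 (chr15:40953232-40953331, plus strand), ATF3 (chr1:212565186-212565285, plus strand), HERPUD1 (chr16:56931936-56932035, plus strand), EGR1 (chr5:138465344-138465443, plus strand) and TGFB1 (chr19:41353989-41354088, minus strand).

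ASNS: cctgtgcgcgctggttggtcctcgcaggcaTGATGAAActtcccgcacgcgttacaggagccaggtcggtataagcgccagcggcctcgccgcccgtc
CHAC1: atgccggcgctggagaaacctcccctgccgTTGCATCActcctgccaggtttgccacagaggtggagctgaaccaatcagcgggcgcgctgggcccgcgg
ATF3: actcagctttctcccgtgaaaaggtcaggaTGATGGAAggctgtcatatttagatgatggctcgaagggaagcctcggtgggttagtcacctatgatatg
HERPUD1: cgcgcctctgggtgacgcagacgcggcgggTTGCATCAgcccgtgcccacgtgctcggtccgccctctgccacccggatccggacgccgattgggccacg
EGR1: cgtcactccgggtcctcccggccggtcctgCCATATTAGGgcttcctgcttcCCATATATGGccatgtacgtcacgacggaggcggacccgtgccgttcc
TGFB1: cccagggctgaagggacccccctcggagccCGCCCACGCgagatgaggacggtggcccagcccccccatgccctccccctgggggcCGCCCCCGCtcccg

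In ASNS and ATF3 the ATF4 element stood in the direction of the gene, 68 and 191 bases before the start. In CHAC1 and HERPUD1 it stood on the opposite strand, 209 and 176 bases before it. The EGR1 stretch holds CArG boxes 105 and 83 bases before the start, and the TGFB1 stretch EGR sites 136 and 80 bases before it. A promoter window was matched for 21 of the 32 called higher genes and 8 of the 9 called lower genes. The ATF4 element was in 6 of the 21 (28.6%; ASNS, SPRED2, ATF3, CHAC1, HERPUD1 and GARS) and in 0 of the 8, against 2.86% of the 11283 genes tested that had a window and 3.62% of all 35116 windows. The CArG box was in 2 of the 21 (EGR1 and GARS) and in 1.65% of the genes tested, and 1.29% of all windows. The EGR sites were in 4 of the 21 (19.0%; ASS1, HERPUD1, TGFB1 and NRARP), in 12.1% of the genes tested and in 5.77% of all windows. A gene was counted when any of its windows held the element. These shares describe letters in a window and show no binding.

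With EGF added to AngII, 41 of 14294 protein-coding genes were called after 24 h (0.287% of those tested), 32 higher (0.224%) and 9 lower (0.063%). A call required a Benjamini-Hochberg FDR under 0.05 in edgeR's quasi-likelihood test, a fold change above 1.5 and a mean above 5 FPM in the higher group. On the FDR alone, 54 genes passed, and 1122 had an unadjusted p under 0.05, 605 of them higher and 517 lower. A fold change above 0 was found for 6867 of the 14294 genes. Of the 41, 37 had no overlap between groups, while the other 4, among them BHLHE40, ZNF33B and NCOA5, overlapped. Over all genes tested, every EGF+AngII library stood above every AngII library for 563 (3.94%) and below for 519 (3.63%). The sign of each of the 41 was the same within both library series. They were called on these same libraries, so this agreement is largely built in and is no independent evidence. The median log2 fold change of all genes tested was -0.01. Without the library series as a block 22 genes were called, all among the 41, and 19 of them were higher. Without the U1-rich libraries, AngII replicate 3 and EGF+AngII replicate 4, 21 were called, 18 of them among the 41. Leaving out 1 library gave 22 calls without EGF+AngII replicate 1, 24 without replicate 3, 25 without replicate 4 and 30 to 44 without an AngII library. Of the 41 calls, 27 did not hold in at least 1 of these 7 leave-one-out fits, 21 of them without EGF+AngII replicate 1, 18 without replicate 3 and 17 without replicate 4, against 5 to 12 without an AngII library. STAG1, SLC7A5, HERPUD1, PSAT1, SLC6A6, IGF2, NCOA5 and GPRC5A stayed called in 3 of the 7, RPS27L, TGFB1, WDR52 and CTH in 2, and GARS, NRARP and INPP5D in 1.

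**Figure D1:**
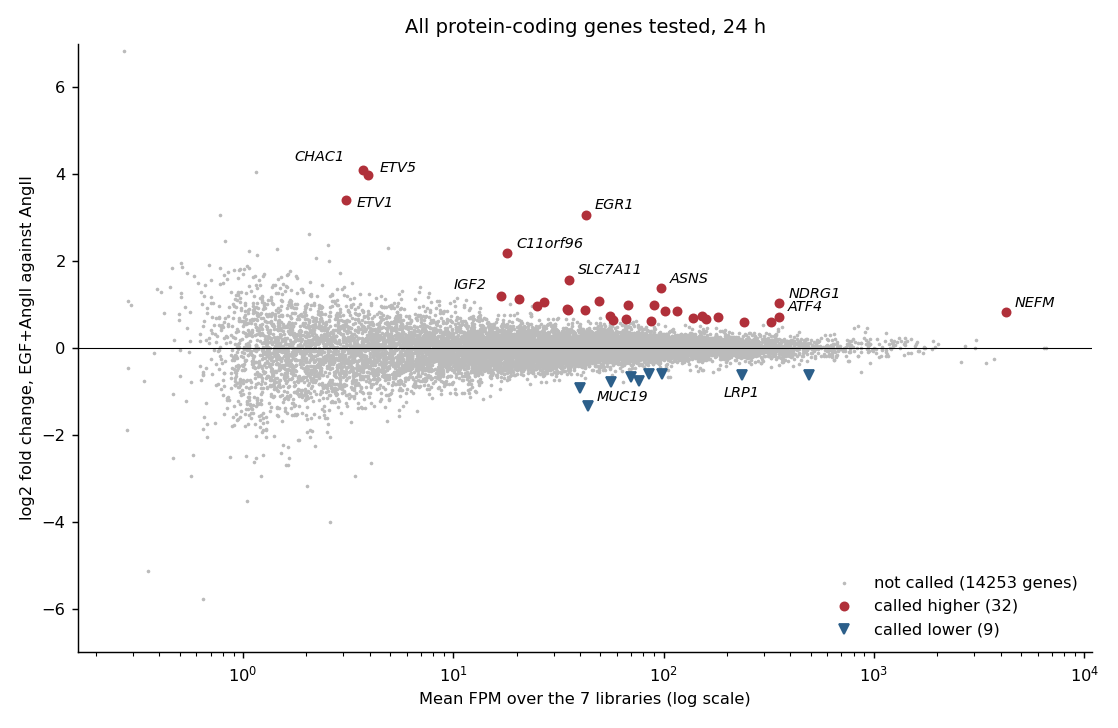
Mean level of each of the 14294 tested genes over the 7 AngII and EGF+AngII libraries after 24 h (x axis, FPM, log scale) against the log2 fold change EGF+AngII against AngII (y axis). Red circles are the 32 genes called higher, blue triangles the 9 called lower and grey points all others, and EGR1, ETV1, ETV5 and CHAC1 have the highest fold changes of the called genes.

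Few ERK-linked genes were called at 24 h, and EGR1 had the lowest p of all genes tested. EGR1 (ENSG00000120738, chromosome 5), an immediate early zinc finger factor, was at 7.21, 9.97, 10.8 and 12.6 FPM in AngII replicates 1 to 4 and at 85.2, 94.2 and 77.8 FPM in EGF+AngII replicates 1, 3 and 4. Each EGF+AngII library was far above each AngII library, and EGR1 rose (log2 fold change 3.07, SE 0.19, adjusted p = 3.8e-12, edgeR). ATF3, a stress-induced basic leucine zipper factor, also rose, from 81.1, 94.8, 84.2 and 88.3 FPM to 162, 156 and 141 FPM (log2 fold change 0.86, SE 0.13, adjusted p = 4.2e-04, edgeR), again with no overlap. No other immediate early gene was called in this fit, but DESeq2 called EGR3 too, and ARC was called without the low-count filter and in the 7 libraries alone. MYC, which drives growth genes, was at 745, 759, 921 and 794 FPM with AngII and at 1010.3, 1050.5 and 1044 FPM with EGF+AngII. Its groups did not overlap, yet its adjusted p was 0.061 and its log2 fold change 0.36 (edgeR). EGR3 was at 3.20, 3.60, 3.07 and 6.16 FPM against 8.12, 11.3 and 13.2 FPM and had a log2 fold change of 1.397 (adjusted p = 0.088, edgeR). ARC, a synaptic immediate early gene, had a log2 fold change of 2.29 (adjusted p = 0.18, edgeR), with 0.481 to 3.07 FPM in the AngII and 6.74 to 11.9 FPM in the EGF+AngII libraries. EGR2 (1.99), FOS (1.05), JUN (0.21), SRF (0.10) and the SRF coactivator MKL1 (-0.22) had adjusted p-values of 0.4, 0.53, 0.63, 0.94 and 0.82 (edgeR), so none of them passed. Of 27 immediate early genes tested, 2 were called higher and 0 lower, 22 had a fold change above 0, and the median was 0.25 against -0.01 over all genes. Of all 14294 genes tested, 6867 had a fold change above 0, 32 were called higher (0.224%) and 9 lower (0.063%).

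**Figure D2:**
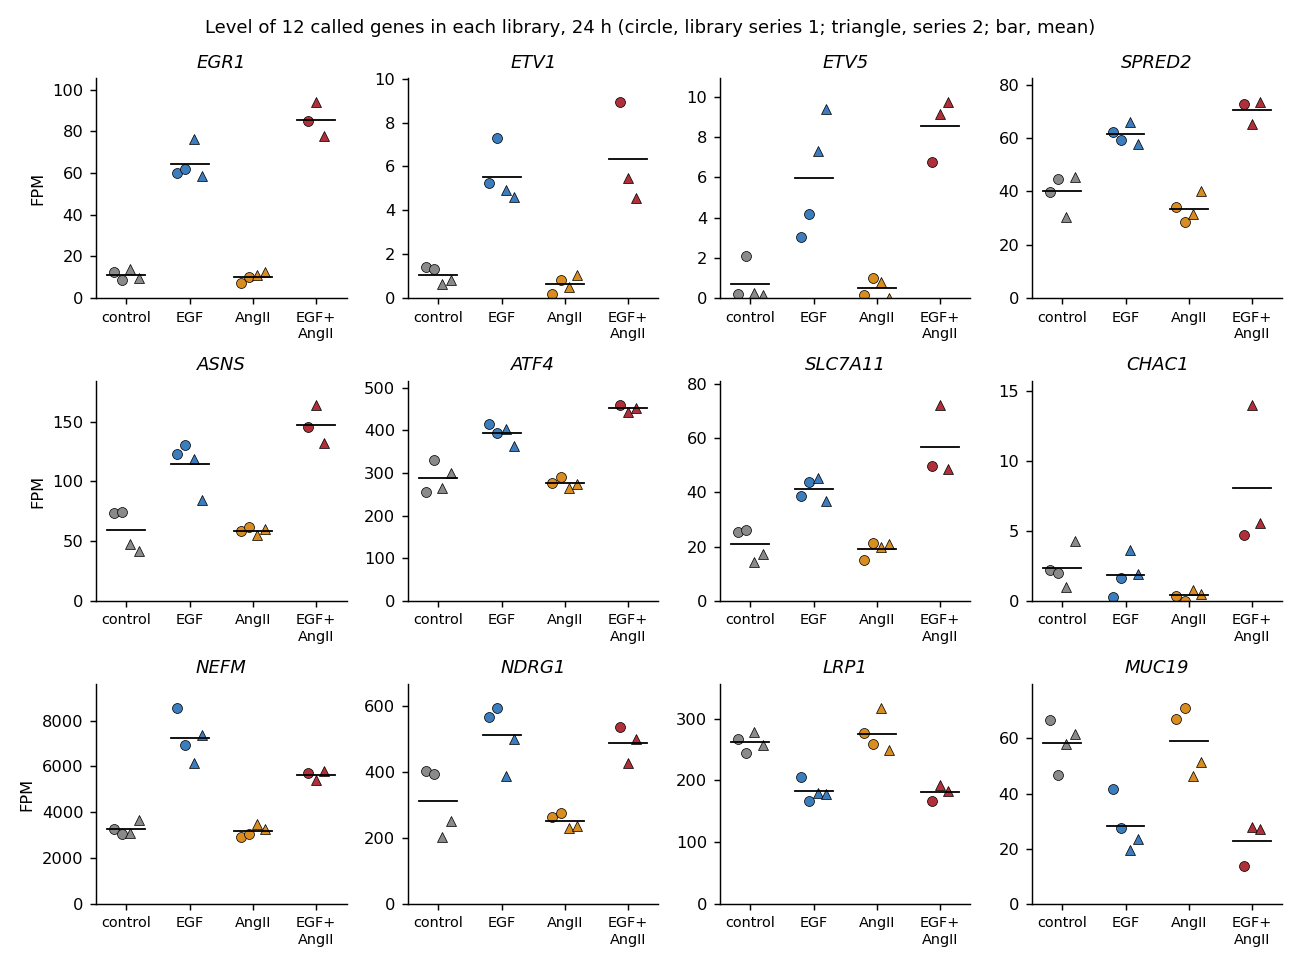
Level of 12 called genes (y axis, FPM, linear from 0) in each control, EGF, AngII (n = 4 each) and EGF+AngII (n = 3) library after 24 h, with circles for library series 1, triangles for series 2 and bars at the group means. In all 12 panels the EGF+AngII libraries lie apart from the AngII libraries, above them in 10 and below them for LRP1 and MUC19.

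The ETS factors ETV1 and ETV5, PEA3-group factors whose expression follows ERK activity, were near 0 with AngII alone. ETV1 was at 0.160, 0.818, 0.484 and 1.03 FPM in AngII replicates 1 to 4 and at 8.94, 5.49 and 4.56 FPM in EGF+AngII replicates 1, 3 and 4, and rose (log2 fold change 3.40, SE 0.63, adjusted p = 0.0049, edgeR). ETV5 was at 0.160, 0.981, 0.807 and 0 FPM and 6.74, 9.15 and 9.75 FPM and rose likewise (log2 fold change 3.97, SE 0.77, adjusted p = 0.0086, edgeR). These levels rest on few reads with AngII, 13 counts of ETV1 and 12 of ETV5 over the 4 libraries, and the fitted folds depend on them. SPRED2, an inhibitor of Ras-to-ERK signalling, was at 34.1, 28.6, 31.5 and 40.0 FPM and 72.8, 65.2 and 73.7 FPM and rose (log2 fold change 1.08, SE 0.16, adjusted p = 2.2e-04, edgeR). All 3 genes were without overlap. SPRY1, another feedback inhibitor, was at 26.2 to 37.1 FPM and 35.1 to 55.4 FPM, overlapped and was not called (log2 fold change 0.58, adjusted p = 0.23, edgeR). SPRY2 (0.88), the phosphatase gene DUSP1 (0.77) and ETV4 (2.08), named after their values were seen, had positive log2 fold changes and adjusted p-values of 0.26, 0.31 and 0.42 (edgeR). RGS16, a regulator of G protein signalling, had a log2 fold change of 0.39 and was not called. Over the 26 ERK feedback and ERK-linked genes tested, 3 were called higher, 0 lower, and the median log2 fold change was 0.52. Of all 14294 genes tested, 32 were called higher (0.224%) and 9 lower (0.063%), with a median of -0.01. Without EGF+AngII replicate 1 or replicate 4, 2 of the 26 were called, and without both U1-rich libraries or with all biotypes 1.

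C11orf96 belonged to none of the lists and rose as well. It was at 5.29, 5.72, 11.3 and 5.90 FPM in AngII replicates 1 to 4, with replicate 3 above the other AngII libraries, and at 25.3, 41.5 and 31.0 FPM with EGF+AngII. The groups did not overlap (log2 fold change 2.19, SE 0.33, adjusted p = 3.6e-04, edgeR).

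Genes of the amino acid response held the most calls of all lists. ATF4 itself was at 276, 291, 264 and 275 FPM in AngII replicates 1 to 4 and at 459.8, 444 and 452 FPM in EGF+AngII replicates 1, 3 and 4. Both groups were tight and apart, and the ATF4 transcript rose (log2 fold change 0.72, SE 0.09, adjusted p = 2.7e-05, edgeR). ASNS (ENSG00000070669, chromosome 7), which makes asparagine from aspartate, was at 58.3, 61.8, 55.2 and 59.8 FPM with AngII and at 146, 164 and 132 FPM with EGF+AngII (log2 fold change 1.38, SE 0.15, adjusted p = 1.1e-06, edgeR). CHAC1, which breaks down glutathione, was at 0.3204, 0, 0.807 and 0.513 FPM and 4.68, 14.02 and 5.55 FPM, with EGF+AngII replicate 3 well above the other two. It was called (log2 fold change 4.10, SE 0.78, adjusted p = 0.0068, edgeR) on 9 counts over the 4 AngII libraries, and DESeq2 gave it no adjusted p in this comparison. PSAT1, of serine synthesis, was at 29.96, 38.7, 26.6 and 30.5 FPM and 59.2, 67.4 and 43.9 FPM (log2 fold change 0.87, SE 0.18, adjusted p = 0.013, edgeR). CTH, which makes cysteine from cystathionine, was at 16.3, 11.1, 14.2 and 12.6 FPM and 22.4, 36.0 and 30.5 FPM (log2 fold change 1.13, SE 0.25, adjusted p = 0.024, edgeR), and stayed called in 2 of 7 leave-one-out fits. STC2, a secreted glycoprotein, was at 63.3, 88.1, 52.1 and 56.4 FPM and 109, 138 and 119 FPM (log2 fold change 1.00, SE 0.16, adjusted p = 8.0e-04, edgeR). None of these genes overlapped between groups.

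SHMT2, the mitochondrial serine hydroxymethyltransferase, passed the FDR with a fold below 1.5 (log2 fold change 0.52, adjusted p = 0.0071, edgeR), at 226 to 289 FPM with AngII and 316 to 408 FPM with EGF+AngII. MTHFD2 (0.56) of one-carbon metabolism and PHGDH (0.46), which opens serine synthesis, were named after their values were seen and had adjusted p-values of 0.056 and 0.084 (edgeR). Over the list of 31 ATF4 and amino acid response genes tested, 6 were called higher and 0 lower. Of these 31, 30 had a fold change above 0, and 22 were higher and 0 lower at an unadjusted p under 0.05. Of all 14294 genes tested, 6867 had a fold change above 0, and 605 were higher and 517 lower at that limit. Calls over all genes tested were 32 higher (0.224%) and 9 lower (0.063%). The median of the 31 was 0.51 against -0.01 over all genes tested. Without the library series block 3 of the list were called, as without EGF+AngII replicate 3, with all biotypes 4, and without the U1-rich libraries 5.

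Amino acid uptake and tRNA charging held further calls. SLC7A11 (ENSG00000151012, chromosome 4), the transport subunit of the cystine/glutamate exchanger, was at 15.1, 21.3, 19.7 and 21.0 FPM in AngII replicates 1 to 4 and at 49.8, 72.2 and 48.6 FPM in EGF+AngII replicates 1, 3 and 4. Its groups lay apart, and it had the largest fold of the transporters (log2 fold change 1.57, SE 0.21, adjusted p = 5.3e-05, edgeR). SLC7A5, the transport subunit of the large neutral amino acid carrier LAT1, rose, being at 46.9 to 58.2 FPM with AngII and at 76.8 to 96.6 FPM with EGF+AngII (log2 fold change 0.66, adjusted p = 0.013, edgeR). SLC6A6, the taurine transporter, rose, being at 44.4 to 51.6 FPM with AngII and at 69.7 to 74.7 FPM with EGF+AngII (log2 fold change 0.65, adjusted p = 0.015, edgeR). SLC38A1 (0.40) and SLC7A1 (0.37), carriers of glutamine and of cationic amino acids, passed the FDR with a fold below 1.5. Of 24 transporter genes tested, 3 were called higher and 0 lower, and the median log2 fold change was 0.28. Over all 14294 genes tested, 0.224% were called higher and 0.063% lower, and the median was -0.01. Of the 24, 3 were also called with DESeq2 and 2 without the library series block. At an FDR of 0.01, without EGF+AngII replicate 1 or replicate 3, or without both U1-rich libraries, 1 was called.

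YARS, the cytosolic tyrosyl-tRNA synthetase, was at 139, 143, 145 and 138 FPM with AngII and at 206, 261 and 229 FPM with EGF+AngII, and rose with no overlap (log2 fold change 0.72, SE 0.10, adjusted p = 2.1e-04, edgeR). GARS, the glycyl-tRNA synthetase, rose, being at 109 to 147 FPM with AngII and at 188 to 226 FPM with EGF+AngII (log2 fold change 0.66, adjusted p = 0.019, edgeR), and stayed called in 1 of 7 leave-one-out fits. SARS (0.36) and MARS (0.51), for serine and methionine, were not called. Over the 20 cytosolic synthetases, 2 were called higher, 11 were higher at an unadjusted p under 0.05 and 0 lower, and the median was 0.29. At that limit 605 of all 14294 genes tested were higher and 517 lower, and 32 of them (0.224%) were called higher. The 17 mitochondrial synthetases, fixed as a separate list, had 0 calls in either direction and a median of -0.0010. At an unadjusted p under 0.05, 0 of them were higher and 1 lower, the lower one AARS2 (-0.33). ASS1, the argininosuccinate synthase of arginine synthesis, was in none of these lists and rose, being at 22.3 to 28.1 FPM with AngII and at 42.9 to 52.7 FPM with EGF+AngII (log2 fold change 0.89, adjusted p = 0.0096, edgeR).

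HERPUD1, of ER-associated degradation, was at 27.1, 28.6, 25.7 and 23.3 FPM and 51.9, 40.8 and 47.6 FPM and rose without overlap (log2 fold change 0.87, SE 0.18, adjusted p = 0.013, edgeR). It was the only call among 27 ER chaperones and unfolded protein response genes, whose median was 0.04. XBP1, a transcription factor of that response, was at 74.4 to 86.0 FPM and 97.3 to 108 FPM (log2 fold change 0.37, adjusted p = 0.32, edgeR).

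Among genes that earlier results of these data had shown to respond late to EGF, NEFM and CLU rose. NEFM (ENSG00000104722, chromosome 8), the medium neurofilament subunit, was at 2905, 3037, 3499 and 3259 FPM in AngII replicates 1 to 4 and at 5704, 5395 and 5804 FPM in EGF+AngII replicates 1, 3 and 4. The gap between the groups was larger than the spread within either (log2 fold change 0.83, SE 0.08, adjusted p = 7.9e-07, edgeR). CLU, a secreted chaperone, was at 43.4, 40.9, 53.2 and 51.1 FPM and 83.4, 96.9 and 102 FPM (log2 fold change 0.98, SE 0.14, adjusted p = 2.1e-04, edgeR), also without overlap. SCARA5, a ferritin receptor, was at 54.3 to 67.7 FPM and 85.7 to 98.7 FPM and missed the FDR (log2 fold change 0.54, adjusted p = 0.076, edgeR). GPR50 was at 0 to 1.45 FPM and 2.75 to 4.93 FPM and was not called either (log2 fold change 2.62, adjusted p = 0.31, edgeR). The list of 7 such genes was chosen on libraries of this series and is no independent evidence of a direction. 2 of them were called and their median was 0.54, against 0.287% called and a median of -0.01 over all genes tested.

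NDRG1, a gene raised by hypoxia and other stress, was at 263, 277, 232 and 237 FPM with AngII and at 536, 429 and 502 FPM with EGF+AngII. The lowest EGF+AngII library was above the highest AngII library (log2 fold change 1.03, SE 0.12, adjusted p = 3.7e-06, edgeR). The other glycolysis and hypoxia genes moved by less than the fold limit or missed the FDR. ALDOA, the aldolase of glycolysis, was at 635, 675, 747 and 681 FPM and 913, 957 and 993 FPM, without overlap, and passed the FDR with a log2 fold change of 0.47 (adjusted p = 8.0e-04, edgeR). LDHA, which converts pyruvate to lactate, was at 946, 985, 656 and 669 FPM and 1396, 831 and 962 FPM, overlapped and missed the FDR (log2 fold change 0.46, adjusted p = 0.059, edgeR). Of 27 genes of this list 1 was called, 25 had a fold change above 0 and the median was 0.18. Of all 14294 genes tested, 6867 had a fold change above 0 and the median was -0.01.

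TGFB1 and IGF2, which encode secreted growth factors, rose. TGFB1, the cytokine TGF-β1, was at 12.3 and 11.4 FPM in the AngII libraries of series 1 and at 24.7 and 23.9 FPM in those of series 2. With EGF+AngII it was at 27.9 FPM in series 1 and at 44.5 and 44.3 FPM in series 2, higher than AngII within each series (log2 fold change 1.05, SE 0.21, adjusted p = 0.013, edgeR). The call of TGFB1 held in 2 of 7 leave-one-out fits and not without the library series block. TGFB1 was the only call among 15 TGF-beta ligands, SMAD inhibitors and ID genes (median -0.06). IGF2, a growth factor, rose from 10.7, 7.36, 11.9 and 12.6 FPM to 20.8, 27.7 and 26.2 FPM (log2 fold change 1.19, SE 0.25, adjusted p = 0.017, edgeR). ADAMTS1, a secreted metalloproteinase, was at 244 to 301 FPM and 341 to 487 FPM (log2 fold change 0.61, adjusted p = 6.0e-04, edgeR). The adaptor gene GAB2, whose protein docks PI3-kinase and SHP2 behind growth factor receptors, rose, being at 40.8 to 46.8 FPM with AngII and at 66.2 to 75.0 FPM with EGF+AngII (log2 fold change 0.73, adjusted p = 0.0088, edgeR). GPRC5A, an orphan receptor induced by retinoic acid, rose, being at 11.8 to 24.0 FPM with AngII and at 32.9 to 34.4 FPM with EGF+AngII (log2 fold change 0.98, adjusted p = 0.023, edgeR). None of these genes overlapped between groups.

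PMAIP1, which encodes the pro-apoptotic BH3-only protein NOXA, was at 139, 145, 90.5 and 114 FPM and 229.6, 168 and 177 FPM (log2 fold change 0.74, SE 0.12, adjusted p = 5.1e-04, edgeR). ARRDC4, an α-arrestin that lowers glucose uptake, was at 75.9, 99.7, 60.0 and 73.4 FPM and 139, 143 and 122 FPM (log2 fold change 0.85, SE 0.14, adjusted p = 7.2e-04, edgeR). It was the only called gene of the 22 FOXO factors and growth-factor-repressed genes, a list named for genes that growth factors lower, and it rose. The median of that list was 0.08. SESN1, a sestrin of the same list, passed the FDR with a lower level, 72.9 to 96.7 FPM against 103 to 134 FPM with AngII, and a fold below the limit (log2 fold change -0.51, adjusted p = 0.021, edgeR). BHLHE40, a transcriptional repressor linked to the circadian clock, was called with groups that overlapped. Its level differed between series, with 133 and 145 FPM against 208 FPM in series 1 and 92.3 and 93.1 FPM against 139 and 158 FPM in series 2 (log2 fold change 0.68, adjusted p = 0.0049, edgeR). NHSL1 (0.62) and NRARP (0.60), a gene of Notch feedback, complete the higher genes, with adjusted p-values of 0.013 and 0.045 (edgeR). NHSL1 was at 62.6 to 74.7 FPM with AngII and 95.2 to 131 FPM with EGF+AngII, and NRARP at 172 to 230.3 FPM and 244 to 346 FPM, both without overlap. NRARP stayed called in 1 of 7 leave-one-out fits.

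Of the 9 lower genes, RPS27L was the only one that stood in a list. MUC19, a gel-forming mucin gene, had the lowest fold change, at 67.0, 71.1, 46.3 and 51.3 FPM in AngII replicates 1 to 4 and at 13.6, 27.7 and 27.1 FPM in EGF+AngII replicates 1, 3 and 4. It fell in both series, more in series 1 (log2 fold change -2.34) than in series 2 (-0.83), a difference that was not tested (log2 fold change -1.34, SE 0.24, adjusted p = 0.0035 over both, edgeR). LRP1, an endocytic receptor for many ligands, was at 277, 259.6, 318 and 249 FPM and 166, 192 and 183 FPM and fell without overlap (log2 fold change -0.63, SE 0.10, adjusted p = 8.0e-04, edgeR). WDR52 was at 51.9, 43.0, 45.7 and 57.5 FPM and 25.7, 29.0 and 26.9 FPM and fell without overlap (log2 fold change -0.91, SE 0.19, adjusted p = 0.021, edgeR), a call that held in 2 of 7 leave-one-out fits. STAG1, a cohesin subunit, fell, being at 105 to 133 FPM with AngII and at 72.2 to 77.7 FPM with EGF+AngII (log2 fold change -0.60, adjusted p = 0.0096, edgeR), and so did INPP5D, an inositol phosphatase best known from blood cells, at 84.1 to 124 FPM and 60.4 to 68.3 FPM (log2 fold change -0.60, adjusted p = 0.045, edgeR). INPP5D stayed called in 1 of 7 leave-one-out fits. The zinc finger gene ZNF33B (-0.76, adjusted p = 0.0057) and the nuclear receptor coactivator gene NCOA5 (-0.78, adjusted p = 0.018, edgeR) were called with groups that overlapped. ZNF33B was at 69.7 to 107 FPM with AngII and 44.0 to 71.5 FPM with EGF+AngII, NCOA5 at 48.7 to 75.4 FPM and 31.5 to 51.2 FPM.

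The splicing factor genes SFPQ, at 992, 964, 1036 and 1017 FPM and 687, 720.3 and 667 FPM, and SRSF6, at 179 to 230.4 FPM and 132 to 142 FPM, passed the FDR with folds below 1.5. Their log2 fold changes were -0.56 (adjusted p = 2.8e-04) and -0.54 (adjusted p = 0.0051, edgeR). RPS27L, a paralog of the ribosomal protein gene RPS27, fell from 70.5, 85.0, 77.5 and 98.3 FPM to 53.0, 57.3 and 48.9 FPM (log2 fold change -0.67, SE 0.14, adjusted p = 0.013, edgeR), and stayed called in 2 of 7 leave-one-out fits. It was the only call among 84 cytosolic ribosomal protein genes, whose median was 0.05, and the counting could divide reads between it and RPS27.

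Several lists held no call in this fit, in either direction. The 18 cytoskeletal SRF targets tested had a median log2 fold change of 0.10, 5 higher and 1 lower at an unadjusted p under 0.05. Over all 14294 genes tested, 605 were higher and 517 lower at that limit, and the median was -0.01. The actin gene ACTG1 was at 1283 to 1481 FPM with AngII and 1544 to 1709.6 FPM with EGF+AngII (log2 fold change 0.21), and the actin-binding TAGLN2 at 239.5 to 313 FPM and 314 to 349.6 FPM (0.28). The 13 genes of the EGF receptor family, its ligands and sheddases had a median of -0.06, and EGFR was at 71.0, 78.0, 55.7 and 57.5 FPM and 70.4, 61.0 and 70.0 FPM (log2 fold change 0.04, adjusted p = 0.98, edgeR). ERBB3, a kinase-impaired member of that family, was at 4.49, 3.11, 4.52 and 7.44 FPM with AngII and at 19.4, 7.32 and 7.28 FPM with EGF+AngII, where replicate 1 stood apart, and was not called (adjusted p = 0.36, edgeR). The ligand gene HBEGF had a log2 fold change of 1.53 (adjusted p = 0.67, edgeR). The 23 genes of AT1 receptor signalling had a median of 0.05, and AGTR1 was the 1 of them with an unadjusted p under 0.05, as ERBB3 was of the former list.

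The 29 genes of cholesterol and fatty acid synthesis had a median of -0.12, 1 higher and 2 lower at an unadjusted p under 0.05, with INSIG1, which holds back sterol synthesis, at 0.44 and the synthase HMGCS1 at -0.33. None of them was called here, and INSIG1 was called higher without AngII replicate 3. G1/S and DNA replication genes had a median of -0.05 over 28 genes, with TYMS at -0.32, and the 24 mitosis genes one of 0.18, with UBE2C at 0.30. At an unadjusted p under 0.05 these lists held 0 higher and 1 lower, and 5 higher and 1 lower genes. Among the 56 clustered histone genes 17 were lower and 3 higher at an unadjusted p under 0.05, their median was -0.18, and 0 were called, against 3 lower in the 7 libraries alone and 2 lower without the low-count filter. At that limit 517 of all 14294 genes tested were lower and 605 higher. Histone transcripts share sequence, so single members are uncertain in these counts. The summed share of histone genes in protein-coding counts was 1.38% ± 0.238 (SD, n = 4) with AngII and 1.24% ± 0.105 (SD, n = 3) with EGF+AngII (exact permutation test, two-sided, p = 0.34, 0.97 after adjustment over 4 shares).

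**Figure D3:**
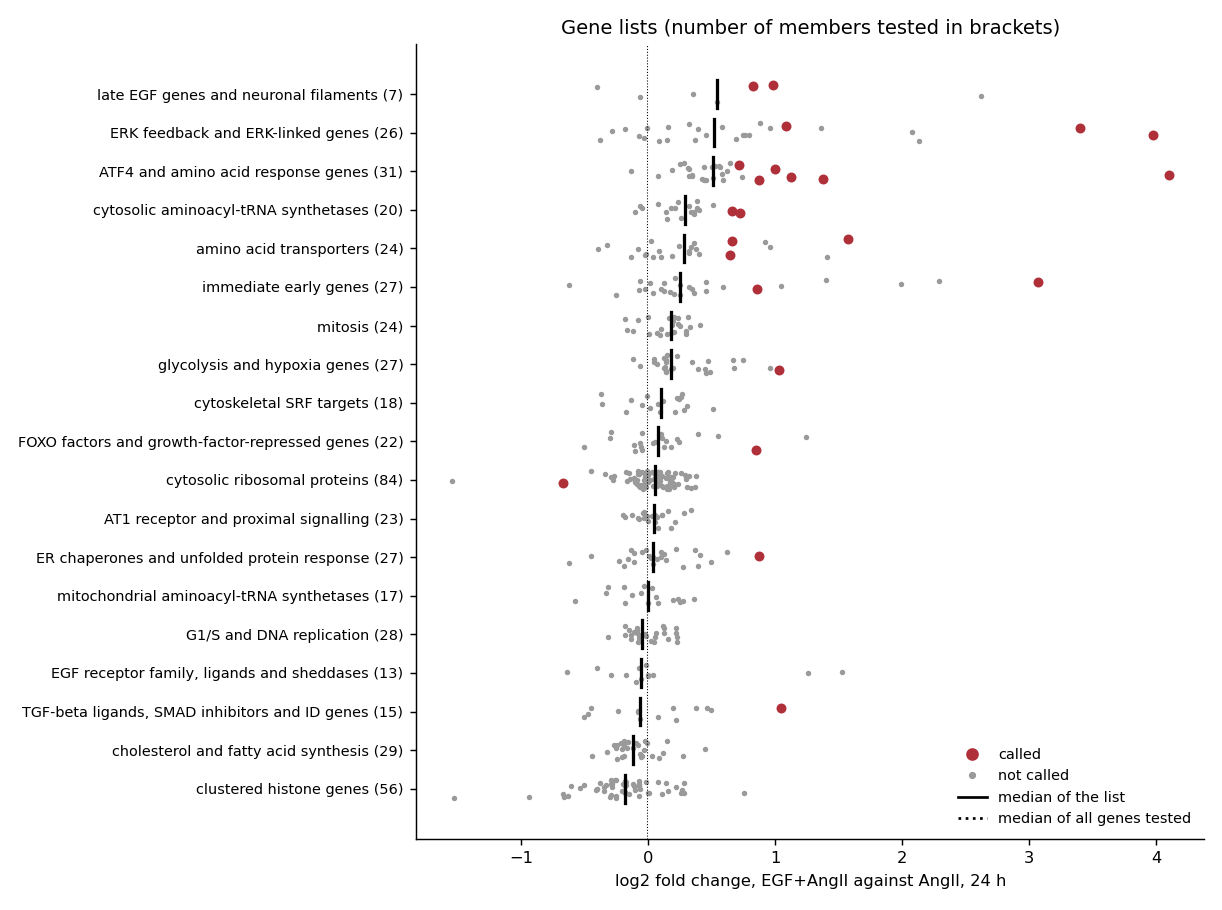
Log2 fold changes EGF+AngII against AngII after 24 h (x axis) of the tested members of each gene list (y axis), with called members in red, a bar at each list's median and a dotted line at the median of all genes tested. The ATF4 and ERK feedback lists have medians of 0.51 and 0.52, the cholesterol and histone lists of -0.12 and -0.18.

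EGF was also given without AngII, and the same genes were compared between the EGF and control libraries, which entered the same edgeR fit and its estimate of the spread. EGF against control after 24 h gave 62 calls (0.434% of genes tested), 49 higher and 13 lower. Of the 41 genes called with AngII present, 24 were also called without it, all in the same direction. These are 58.5% of the former and 38.7% of the latter calls, and 22 of them were higher and 2 lower. A further look without thresholds gave the same sign for 40 of the 41, the exception being CHAC1, and an unadjusted p under 0.05 for 39, all but CHAC1 and PSAT1. Over all genes tested, 62.6% had the same sign in both comparisons. An unadjusted p under 0.05 for EGF against control was reached by 1868 of all 14294 genes (edgeR). The lower genes called in both were MUC19 (-1.09 with EGF against control) and WDR52 (-1.11).

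EGR1 was at 11.2 ± 2.30 FPM (SD, n = 4) in control and at 64.3 ± 8.18 FPM (SD, n = 4) with EGF, against 10.1 ± 2.23 FPM (SD, n = 4) with AngII and 85.7 ± 8.19 FPM (SD, n = 3) with EGF+AngII. Its log2 fold change for EGF was 2.53 without and 3.07 with AngII. For ASNS these log2 fold changes were 0.97 and 1.38, for SLC7A11 1.00 and 1.57, for ATF4 0.45 and 0.72, and for SPRED2 0.62 and 1.08. NEFM went the other way, with 1.16 without and 0.83 with AngII, and HERPUD1 had 1.02 and 0.87. RGS16 and SCARA5 were called for EGF alone (1.17 and 0.72) and not when AngII was present (0.39 and 0.54). EGR3 was likewise called for EGF alone (1.70) and not with AngII (1.397). CHAC1 was at 2.37 ± 1.39 FPM (SD, n = 4) in control and 1.87 ± 1.39 FPM (SD, n = 4) with EGF alone.

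The difference between the effects of EGF with and without AngII was tested as an interaction, and 0 genes were called by edgeR, while 472 had an unadjusted p under 0.05. The smallest adjusted p was 0.998 (edgeR). DESeq2 called 1 gene, CHAC1, and edgeR without the low-count filter 3, CHAC1 (4.54), MTRNR2L2 (-1.49) and MTRNR2L8 (-1.14), the last pair being near-identical copies of mitochondrial sequence whose counts are uncertain. Among the 41 genes the interaction ranged from -0.37 to 4.52 on the log2 scale, with a median size of 0.20 and a median SE of 0.19. An unadjusted p under 0.05 was reached by 8 of them, namely CHAC1 (4.52), PSAT1 (0.55), EGR1 (0.54), SPRED2 (0.46), ASNS (0.41) and ATF4 (0.27), which were larger with AngII, STAG1 (-0.33), which was more negative with it, and NEFM (-0.33), which was smaller with it. Since the 41 were chosen on the comparison with AngII, a larger size there is partly built in: the fold was larger with AngII for 37 of the 41, but for 21 of the 62 genes called with EGF against control. Among the 24 genes called in both, 20 had the larger size with AngII, with median sizes of 0.98 and 0.84.

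**Figure D4:**
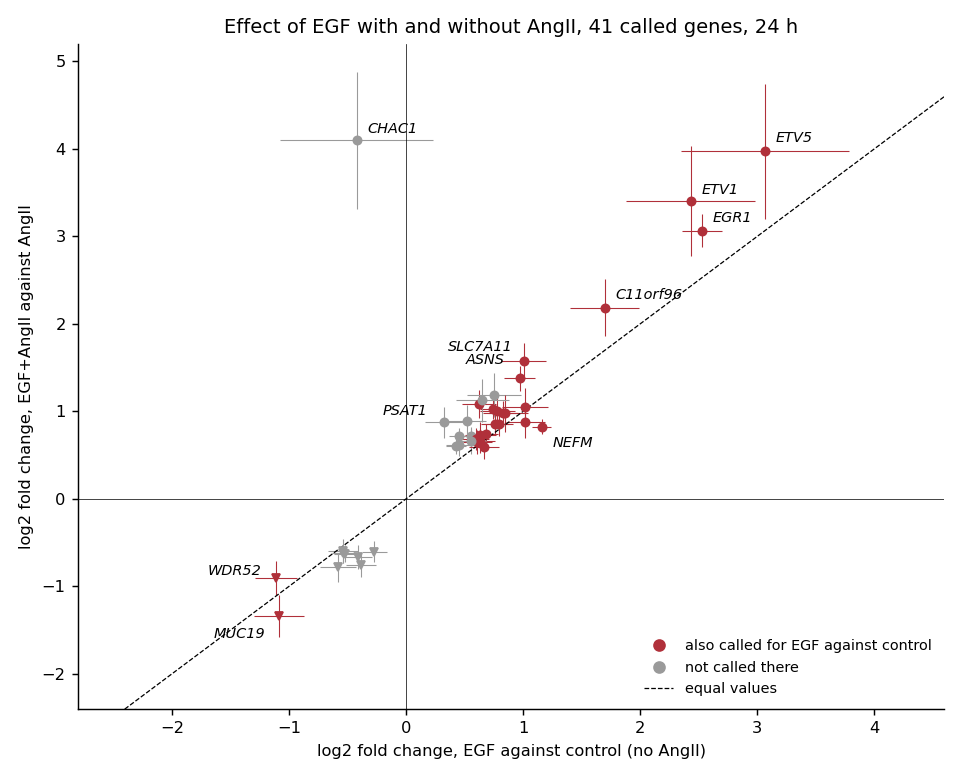
Log2 fold change for EGF against control (x axis) and for EGF+AngII against AngII (y axis) after 24 h, each with its standard error, for the 41 genes called in the latter. Red marks the 24 genes also called for EGF against control, the dashed line marks equal values, and CHAC1 is the 1 gene with opposite signs on the axes.

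The same comparison after 6 h, in 8 other libraries, gave 363 calls, 257 higher and 106 lower (2.74% of 13237 genes tested). Of the 41 genes called after 24 h, 40 were tested after 6 h and 17 were called there in the same direction, 15 higher and 2 lower (MUC19 and INPP5D). These are 41.5% of the calls after 24 h and 4.68% of those after 6 h. The sign was the same for 38 of the 40, and CTH (-0.25 after 6 h) was among the exceptions. The share of all genes with the same sign at both times was not computed. Across all genes tested at both times, the Pearson correlation of the log2 fold changes was 0.23. The 6 h and 24 h libraries were joined in 1 fit for the difference in log2 fold change between times, which called 59 genes (0.413% of 14284 tested), 6 of them among the 41.

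EGR1 had a smaller log2 fold change after 24 h (3.07) than after 6 h (4.14), a difference of -1.06 (SE 0.26, adjusted p = 0.046, edgeR). EGR3 went from 3.35 after 6 h to 1.397 after 24 h (difference -1.95, adjusted p = 0.024, edgeR). ASNS, SLC7A11, ATF4 and CTH had larger log2 fold changes after 24 h than after 6 h. ASNS was at 0.15 after 6 h and 1.38 after 24 h (difference 1.23, adjusted p = 4.3e-05, edgeR), and its level after 6 h was 74.5 ± 6.71 FPM (SD, n = 4) with AngII and 82.3 ± 2.87 FPM (SD, n = 4) with EGF+AngII. SLC7A11 rose from a log2 fold change of 0.23 to 1.57 (difference 1.35, adjusted p = 0.0057, edgeR), ATF4 from 0.13 to 0.72 (difference 0.59, adjusted p = 0.024, edgeR) and CTH from -0.25 to 1.13 (difference 1.38, adjusted p = 0.018, edgeR). SFPQ (-0.69) had a lower log2 fold change after 24 h, and TXNIP, an α-arrestin, a higher one (1.07), from -0.67 after 6 h to 0.40 after 24 h.

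ETV1 (3.71), ETV5 (4.90), SPRED2 (1.36), C11orf96 (2.22) and TGFB1 (1.798) were called after both times, and none of them had a called difference between times. NDRG1 (1.44), NEFM (0.76) and CLU (0.79) were called after 6 h as well. By list, the ATF4 and amino acid response genes had a median of 0.16 after 6 h and 0.51 after 24 h, with 2 and 6 called higher. The cytosolic synthetases had 0.14 and 0.29, with 0 and 2 calls. The ERK feedback list went from 10 calls after 6 h to 3 after 24 h with medians of 0.57 and 0.52, the immediate early list from 5 to 2 with 0.38 and 0.25, and the glycolysis list from 9 to 1 with 0.45 and 0.18. The differences between these medians were not tested, and the time and the set of libraries cannot be told apart.

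**Figure D5:**
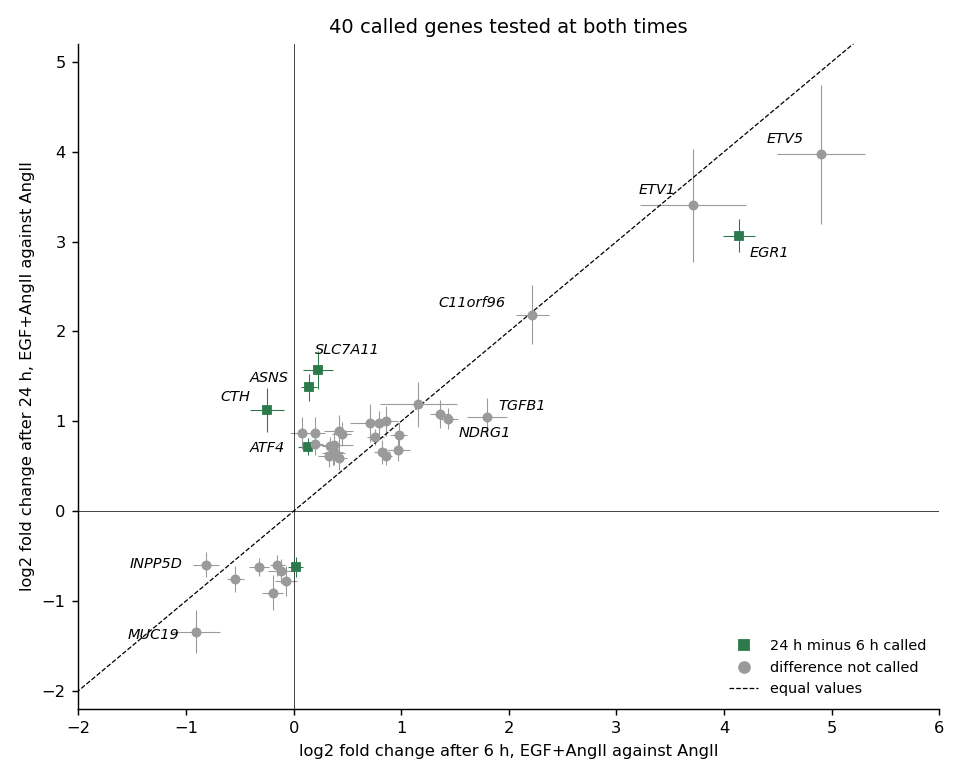
Log2 fold changes EGF+AngII against AngII after 6 h (x axis) and 24 h (y axis), with standard errors as bars, for the 40 genes called after 24 h and tested at both times. Green squares mark the 6 genes whose difference between times was called, of which EGR1 lies below the dashed line of equal values and ASNS, SLC7A11, ATF4 and CTH above it.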

How the data were processed

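RNA was sequenced from HEK293 cells with AT1R. The authors deposited raw counts per gene. Per their methods, reads were trimmed with Trim Galore and cutadapt 1.8.1, mapped with TopHat2 2.0.14 to hg19 and counted with featureCounts 1.4.6. The text of the series names HISAT2, which the methods give for stably transfected cells and not for the transiently transfected cells used here. The strand setting is not given in the sources used here, so a gene and its antisense partner cannot be told apart. The word filtered stands in 8 of the 15 column names after 24 h, with no reason stated. These are all analysed libraries of series 1 and, in series 2, EGF+AngII replicate 3 only. Within series 2 the word thus stands on the EGF+AngII side alone. With this word as block in place of the library series, a fit chosen after seeing the data, 33 genes were called, 32 of them among the 41. The part of this filtering in the results was not tested.

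From these counts, protein-coding rows of all 15 analysed 24 h libraries were filtered with filterByExpr, TMM-scaled and fitted with edgeR 4.0.16 (R 4.3.3) quasi-likelihood tests on 4 conditions with the 2 library series as a block. The common biological coefficient of variation was 18.0%. The 6 h and joint fits were made likewise, and scripts were tested on simulated data. DESeq2 1.42.0, other filters, blocks and biotypes and each library left out were alternatives. No 2 replicates agreed within sampling noise.

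The members and lists were chosen with earlier results of these data known. Named genes are the 30 called genes of lowest p, up to 6 members of each list by p or level, and genes the study measured or earlier results named. The other 11 called genes, SFPQ, SRSF6, MTRNR2L2, MTRNR2L8 and those said so were named after their values were seen. Promoters are RefSeq's, matched by Ensembl ID or symbol. The values of 1 called lower gene and 1 marker gene are not reported here.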

Additional observations from a re-analysis of the deposited data

Results flagged for a closer look

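In 4 of the 87 sets of 4 AngII libraries examined, 1 library lay farther from the rest than Dixon's 95% critical value allows, and about 1 in 20 sets is expected to do so by chance. AngII replicate 3 had 11.3 FPM of C11orf96, with 5.29 to 5.90 FPM in the other AngII libraries. It also had 518 FPM of JUN, with 417 to 426 FPM in the others, and 50.5 FPM of MKL1, with 39.0 to 40.7 FPM in the others. AngII replicate 4 had 103 FPM of INSIG1, with 144 to 151 FPM in the others.

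For 8 named genes the log2 fold change EGF+AngII against AngII differed between 24 h and 6 h in the joint edgeR fit. The difference, 24 h minus 6 h, was -1.06 for EGR1, -1.95 for EGR3 and -0.69 for SFPQ. It was 1.23 for ASNS, 1.35 for SLC7A11, 1.38 for CTH, 0.59 for ATF4 and 1.07 for TXNIP. The time and the set of libraries cannot be told apart.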

How the results depend on the processing

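All 41 called genes kept their sign under each alternative to the reported fit of EGF+AngII against AngII after 24 h that gave a value (20 for each gene, 19 for CHAC1), and EGR1, NEFM and ASNS were called in each of them. The alternatives reuse the libraries on which the genes were called, so the kept signs are largely built in. The number of calls moved from 41 to 26 at an FDR of 0.01, 22 without the library series block, 9 with all biotypes and no block, 67 in the 7 libraries alone, 6 within series 1 and 11 within series 2, and, chosen after seeing the data, 21 without both U1-rich libraries. The cause was not tested. Leaving out 1 library in turn gave 22 to 44 calls, with 22 without EGF+AngII replicate 1, 24 without replicate 3 and 25 without replicate 4, and 14 of the 41 genes were called in each of these 7 fits. The share of calls that were higher was 78.0%, and 86.4% without the block, 65.7% in the 7 libraries alone and 100.0% with all biotypes and no block.

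EGF against control went from 62 calls to 122 with DESeq2, 127 without the low-count filter, 119 without the FPM and fold limits, 27 at an FDR of 0.01, 20 without the block, 35 with all biotypes and 7 with all biotypes and no block. The interaction went from 0 to 1 with DESeq2 and 3 without the low-count filter. The 6 h comparison went from 363 to 1514 without the FPM and fold limits. The time difference went from 59 to 119 with DESeq2, 110 without the low-count filter, 15 at an FDR of 0.01, 18 without the block and 16 with all biotypes and no block. The log2 fold change of SRF (0.10) turned to -0.0886 within series 2 and ranged from -0.0243 to 0.21 with 1 library left out. That of EGFR (0.04) turned to -0.0806 within series 1 and -0.0636 without both U1-rich libraries, and ranged from -0.0415 to 0.131 with 1 library left out. No paired analysis was possible because replicates carry no numbers in the labels. With 3 against 4 libraries of 3216794 to 8028878 protein-coding counts, genes of few counts such as ETV1, ETV5 and CHAC1 have SEs of 0.63 to 0.78, and smaller changes of such genes were not detectable at this depth.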

Other observations

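Transcripts that do not code for protein were outside the comparison. When all biotypes were fitted together, 1 of 8074 noncoding genes tested was called, the lincRNA gene AC159540.1 on chromosome 2. It was at 159, 141, 88.3 and 89.7 FPM in AngII replicates 1 to 4 and at 79.9, 49.1 and 45.2 FPM in EGF+AngII replicates 1, 3 and 4, and fell without overlap (log2 fold change -0.97, SE 0.17, adjusted p = 0.013, edgeR).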
